A study of Homo sapiens with 8 samples.

Results

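The 10 genes GATA3, PPARG, FOXA1, ELF3, GRHL3, TP63, KLF5, UPK1B, UPK2 and UPK3A were followed in xenograft tumours of T24, a long-established line of human bladder cancer cells. They were found by symbol among the 58302 genes of the count table. The set holds 7 transcription factors that set the identity of the urothelium, the epithelium that lines the bladder, and 3 uroplakins. Messenger RNA was sequenced from 4 libraries of tumours grown from T24 cells with enforced expression of DDR1, a receptor tyrosine kinase activated by collagen, and from 4 libraries of tumours grown from control T24 cells. Both groups are the same line grown in mice, so host cells are part of each tumour. The labels name neither the vector or promoter that drove DDR1, nor what the control cells carried, nor the mouse strain, age or number of animals. Replicate numbers follow accession order. Replicates 2, 3 and 4 of the DDR1 group share a title prefix, as do control replicates 3 and 4, and nothing says that libraries came from separate animals. The spread behind every p-value is therefore that of these 8 libraries and may be technical.

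Urothelium is built from basal cells, intermediate cells and a surface layer of umbrella cells. Uroplakins are membrane proteins of the umbrella cells that assemble into rigid plaques and make the bladder surface impermeable. UPK1B, a tetraspanin, pairs with UPK3A, while UPK2 pairs with the other tetraspanin, UPK1A. TP63 marks and maintains basal cells. PPARG, GATA3 and FOXA1 drive luminal differentiation, in which ELF3 acts downstream of PPARG, and in mice GRHL3 and KLF5 are needed for urothelial maturation. Bladder cancers are often divided into luminal tumours, which keep this program, and basal or squamous tumours, which express TP63 and basal keratins.

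In these tumours the 2 most abundant of the 10 genes were KLF5 and TP63, and the uroplakins were near the limit of detection. No member had a difference between the DDR1 and control groups that passed the test against the spread between libraries. The spread itself was wide. FOXA1 differed 8.6-fold between its highest and lowest library, and ELF3 4.34-fold, and both were highest in the library labelled DDR1 replicate 1. Without that library these ranges were 3.61-fold and 2.63-fold. Totals ran from 20789503 to 32271031 expected counts in the DDR1 group and from 13716286 to 22736674 in controls, and an exact two-sided permutation test of that difference gave p = 0.0857. All DDR1 titles name lane 8, while 2 control titles name lane 7 and 2 name none, so lane and group cannot be told apart.

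DDR1, the enforced gene, was read first as a check of the groups. It stood at 159, 343, 427 and 810 CPM (counts scaled to library size with TMM normalization) in DDR1 replicates 1 to 4, against 138, 110, 210 and 149 CPM in control replicates 1 to 4. The library labelled DDR1 replicate 1 lay between controls for DDR1, against what its label says. Over all 8 libraries the DDR1 log2 fold change was 1.52 (SE 0.43, edgeR quasi-likelihood unadjusted p = 0.00612, p = 0.9998 after Benjamini-Hochberg adjustment over all genes), and the exact two-sided permutation p was 0.0571, where 0.0286 is the smallest that 70 orderings allow. Without the 2 controls of lane 7 the edgeR unadjusted p was 0.0653. Some fold changes and correlations that move with the library labelled DDR1 replicate 1 are given with and without it. Others that may move with it are given over all 8 libraries only.

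Of 18973 genes tested with edgeR, 0 were called at an adjusted p under 0.05 (0%), and 791 (4.17%) had an unadjusted p under 0.05, 1.93% of all genes with higher and 2.24% with lower levels in the DDR1 group. DESeq2 called 15 (0.0791%), and limma-voom and limma-trend called 0. Among the 10 members, 8 had enough counts to be tested, while UPK2 and UPK3A did not pass the filter. None of the 8 was called and 0 had an unadjusted p under 0.05, in edgeR, DESeq2, limma-voom or limma-trend. The groups overlapped for all 10 members, against 456 genes (2.40%) without overlap among those tested. The 8 tested members had a median log2 fold change of 0.30, 7 positive and 1 negative, where the median over all genes tested was 0 and 49.5% were positive. These counts describe the members that passed the filter and support no call. Without 1 library the member median ran from 0.19 to 0.44.

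The sequences just before the start sites of FOXA1, ELF3, GRHL3 and KLF5 are shown because the 4 highest correlations between members, given further on, are among these 4 factors. Each line holds the 250 bases upstream of the RefSeq start, on the gene's own strand, from RefSeq's promoter table (GRCh38.p14). The windows are chr14:37595250-37595499 (minus strand), chr1:202010337-202010586 (plus), chr1:24319107-24319356 (plus) and chr13:73054726-73054975 (plus). Capitals mark matches on either strand to short motifs: AGATAA or TGATAA for GATA factors, TGTTTAC or TGTTTGC for FOXA factors, AGGTCA for a nuclear receptor motif, CGGAAG for ETS factors such as ELF3, ACCGGT for the grainyhead core, GGGCGG for the GC box of SP and KLF factors, and TATAAA for the TATA box. No marked matches overlap.
FOXA1: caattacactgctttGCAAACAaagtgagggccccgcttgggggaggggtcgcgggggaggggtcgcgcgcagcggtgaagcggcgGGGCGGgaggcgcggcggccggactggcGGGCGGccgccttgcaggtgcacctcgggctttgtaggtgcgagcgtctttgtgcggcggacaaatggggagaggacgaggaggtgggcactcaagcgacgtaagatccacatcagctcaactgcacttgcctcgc
ELF3: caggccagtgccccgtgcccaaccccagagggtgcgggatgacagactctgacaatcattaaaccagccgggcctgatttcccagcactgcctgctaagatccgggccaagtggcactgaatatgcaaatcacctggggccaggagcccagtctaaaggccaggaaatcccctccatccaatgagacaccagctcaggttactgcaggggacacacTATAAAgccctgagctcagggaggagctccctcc
GRHL3: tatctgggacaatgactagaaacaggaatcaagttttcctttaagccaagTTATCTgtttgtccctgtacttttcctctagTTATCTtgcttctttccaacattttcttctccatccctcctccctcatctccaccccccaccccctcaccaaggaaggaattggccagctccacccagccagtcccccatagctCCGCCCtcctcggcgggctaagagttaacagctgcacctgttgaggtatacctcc
KLF5: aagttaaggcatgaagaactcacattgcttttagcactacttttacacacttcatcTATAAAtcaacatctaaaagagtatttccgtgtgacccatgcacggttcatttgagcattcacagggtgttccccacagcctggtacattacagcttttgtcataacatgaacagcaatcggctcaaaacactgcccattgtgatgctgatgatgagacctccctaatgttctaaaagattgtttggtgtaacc

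The 4 windows differed in base composition. FOXA1 holds 26 CpG dinucleotides in its 250 bases, more than in 80.8% of 27305 promoter windows of the same length, which have a median of 11. ELF3 holds 4, GRHL3 3 and KLF5 3, fewer than that median. ELF3 and KLF5 each hold 1 match to TATAAA, letters found at any position in 11.1% of all windows. The ELF3 match lies close to the start site. The KLF5 match lies in the part of the window far from the start, so it is not read as a TATA box. FOXA1 carries 1 FOXA motif (6.05% of windows) and 2 GC boxes (42.3%), and GRHL3 carries 2 GATA motifs (14.9%) and 1 GC box. None of the 4 holds the grainyhead core (1.41%), the nuclear receptor motif (12.1%) or the ETS motif (16.8%) in this window. The RefSeq starts of FOXA1 and ELF3 lie 810 and 2642 bases from the starts of their GENCODE models, so these windows do not lie at the outermost start of those models. Of the other matched members, CpG counts were 11 for GATA3, 8 for PPARG, 6 for TP63 and 6 for UPK1B. PPARG carried 2 nuclear receptor motifs, and GATA3 carried 1 FOXA and 1 ETS motif. A match is a run of letters and not a measured binding site. RefSeq's table matched 8 of the 10 members, all but UPK2 and UPK3A.

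Levels of different genes are compared per kilobase of the union of their exons. KLF5, a zinc finger factor of proliferating epithelium, led with a mean of 40.2 ± 16 CPM per kb (SD, n = 8), at percentile 95.7 of tested genes. TP63 followed at 27.9 ± 11.7 CPM per kb and was below KLF5 in 6 of 8 libraries, so their order is not clear of the spread. FOXA1 at 5.29 ± 4.19 CPM per kb was below TP63 in 7 of 8 libraries. PPARG at 3.65 ± 1.07 CPM per kb lay below FOXA1 in 5 of 8 libraries, so these neighbours do not differ beyond their spread. ELF3 at 1.91 ± 1.06 CPM per kb was below PPARG in 7 of 8 libraries. GATA3 at 1.48 ± 0.668 and GRHL3 at 1.29 ± 0.746 CPM per kb, like ELF3 and GATA3, were each above the other in 4 of 8 libraries. UPK2 at 0.474 ± 0.633, UPK1B at 0.301 ± 0.263 and UPK3A at 0.0708 ± 0.0749 CPM per kb closed the order. UPK2 lay above UPK1B in 3 of 8 libraries only, so the order of those 2 follows the mean alone. The ranges of all neighbouring genes overlapped.

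**Figure D1:**
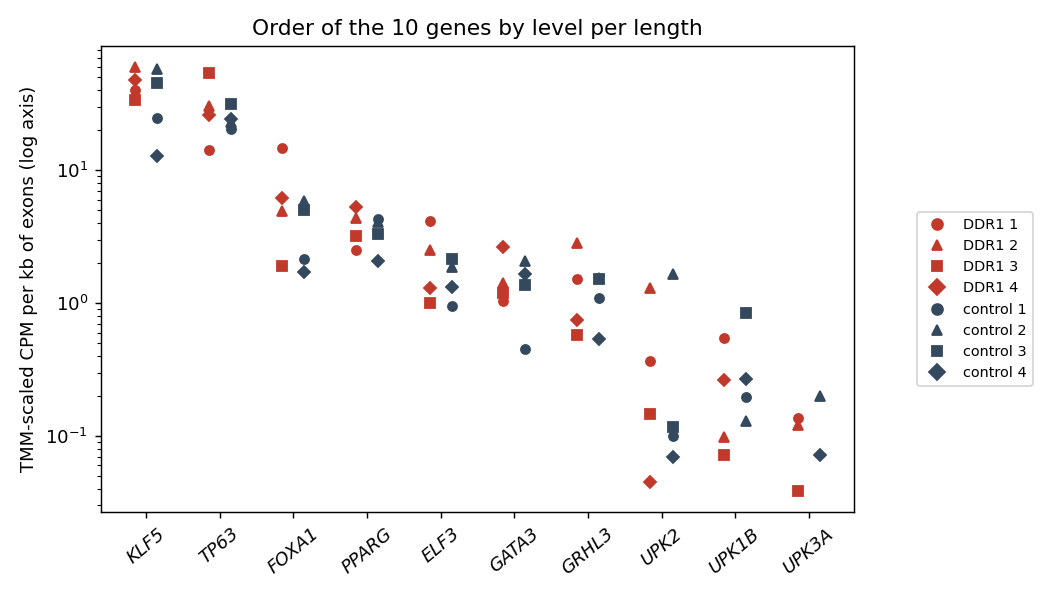
Level of each gene per kilobase of exons in each of 8 libraries (log axis, TMM-scaled CPM per kb). Points at the left of each column are DDR1 libraries and points at the right are controls; UPK3A values of 0 are not drawn. By their means KLF5 (40.2) and TP63 (27.9) stand above the other factors and the uroplakins are lowest, but the ranges of neighbouring genes overlap.

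FOXA1 is a pioneer factor that opens chromatin and acts with GATA3 and PPARG in luminal urothelium (ENSG00000129514, GRCh38 chromosome 14, 37589984 to 37596059, minus strand). It stood at 58.3, 19.7, 7.61 and 24.5 CPM in DDR1 replicates 1 to 4, against 8.53, 23.2, 19.9 and 6.78 CPM in control replicates 1 to 4. The library labelled DDR1 replicate 1 was the highest and control replicate 4 the lowest, and the other DDR1 libraries ran from near the lowest control to just above the highest. The means were 27.5 ± 21.7 CPM in the DDR1 group and 14.6 ± 8.17 in controls (SD, n = 4 each). That is a log2 fold change of 0.91 (SE 0.59), which did not pass (edgeR unadjusted p = 0.158, adjusted p = 0.9998). The exact two-sided permutation p was 0.4. Without the library labelled DDR1 replicate 1 the log2 fold change was 0.24. FOXA1 had the smallest unadjusted p among the members. Its p was under 0.05 in 1 setting, without DDR1 replicate 3 (edgeR unadjusted p = 0.0414, log2 fold change 1.22). Exons of TTC6 overlap FOXA1 on the other strand, with 369 counts in all against 4591 for FOXA1, and strand marking is not stated.

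ELF3 is an epithelial ETS factor and is often mutated in bladder cancer (ENSG00000163435, chromosome 1, 202007945 to 202017188, plus strand). It held 29.8, 18, 7.28 and 9.45 CPM in DDR1 replicates 1 to 4, against 6.87, 13.4, 15.5 and 9.6 CPM in control replicates 1 to 4. The 2 highest libraries were labelled DDR1, but DDR1 replicates 3 and 4 were lower than 3 of the 4 controls. The means were 16.1 ± 10.2 CPM in the DDR1 group and 11.4 ± 3.88 CPM in controls (SD, n = 4 each). Its log2 fold change of 0.51 (SE 0.44, edgeR unadjusted p = 0.284) was 0.03 without the library labelled DDR1 replicate 1.

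GRHL3 is a grainyhead factor of terminal epithelial differentiation (ENSG00000158055, chromosome 1, 24319322 to 24364482, plus strand). It held 5.95, 11.1, 2.27 and 2.95 CPM in DDR1 replicates 1 to 4, against 4.32, 6.06, 5.98 and 2.13 CPM in control replicates 1 to 4. DDR1 replicate 2 was highest, and DDR1 replicate 3 and control replicate 4 were lowest. Its log2 fold change of 0.27 (SE 0.52, edgeR unadjusted p = 0.623) was -0.31 without DDR1 replicate 2.

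KLF5 (ENSG00000102554, chromosome 13, 73054976 to 73077542, plus strand) held 156, 233, 131 and 186 CPM in DDR1 replicates 1 to 4, against 96, 224, 178 and 50 CPM in control replicates 1 to 4. Control replicates 1 and 4 were the lowest libraries, while the 2 other controls lay within the DDR1 range. The means were 176 ± 43.8 CPM in the DDR1 group and 137 ± 78.3 CPM in controls, and the log2 fold change of 0.37 (SE 0.41) did not pass (edgeR unadjusted p = 0.393). Without control replicate 4 it was 0.10.

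TP63, the factor that maintains basal cells (ENSG00000073282, chromosome 3, 189631416 to 189897279, plus strand), held 106, 225, 399 and 194 CPM in DDR1 replicates 1 to 4. Control replicates 1 to 4 held 152, 172, 234 and 180 CPM. The lowest and the highest of the 8 libraries were both labelled DDR1, replicates 1 and 3, and the controls lay between them. The difference on the log2 scale, 0.32 (SE 0.35, edgeR unadjusted p = 0.373), was -0.07 once DDR1 replicate 3 was left out. Leaving out the library labelled DDR1 replicate 1 gave 0.56. These are values of the whole gene, so the long and short forms of p63 were not told apart.

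PPARG, a lipid-sensing nuclear receptor (ENSG00000132170, chromosome 3, 12287368 to 12434356, plus strand), was the steadiest member. It held 11.5, 20, 14.5 and 24 CPM in DDR1 replicates 1 to 4, against 19.6, 18.6, 15 and 9.45 CPM in control replicates 1 to 4. The groups covered nearly the same range, and its log2 fold change was 0.16 (SE 0.30, edgeR unadjusted p = 0.609). GATA3, a zinc finger factor and a clinical marker of urothelial origin (ENSG00000107485, chromosome 10, 8045378 to 8075203, plus strand), held 3.56, 4.84, 4.13 and 9.15 CPM in DDR1 replicates 1 to 4. Control replicates 1 to 4 held 1.55, 7.1, 4.74 and 5.71 CPM. DDR1 replicate 4 was highest for both genes, and GATA3 was lowest in control replicate 1. For GATA3 the log2 fold change was 0.18 (SE 0.47, edgeR unadjusted p = 0.71). Leaving out DDR1 replicate 4 turned the sign of both, to -0.19 for GATA3 and -0.03 for PPARG. GATA3 was also negative without control replicate 1 (-0.11) and PPARG without control replicate 4 (-0.02).

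The uroplakins were at or near the counting floor, set at 3 counts per library, which equals 0.0862 to 0.15 CPM in the DDR1 libraries and 0.125 to 0.229 CPM in controls. This floor covers counting error only. UPK1B (ENSG00000114638, chromosome 3, 119173517 to 119205153, plus strand) had 43, 7, 4 and 12 expected counts in DDR1 replicates 1 to 4, against 8, 7, 44 and 8 in control replicates 1 to 4. One library of each group held most of the reads. On the CPM scale these were 1.24, 0.221, 0.162 and 0.6 in the DDR1 group and 0.443, 0.292, 1.89 and 0.609 in controls. Its log2 fold change of -0.54 (SE 0.75, edgeR unadjusted p = 0.486) changed sign with control replicate 3 left out, to 0.36. With the library labelled DDR1 replicate 1 left out it was -1.35.

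UPK2 (ENSG00000110375, chromosome 11, 118925164 to 118958559, plus strand) had 14, 45, 4 and 1 expected counts in DDR1 replicates 1 to 4, against 2, 44, 3 and 1 in control replicates 1 to 4. It was at or under 3 counts in 4 of 8 libraries and stood out in DDR1 replicate 2 and control replicate 2. Its exons overlap those of BCL9L on the other strand, so the few UPK2 reads cannot be told apart from that gene's. UPK3A (ENSG00000100373, chromosome 22, 45284982 to 45295874, plus strand) had 5, 4, 1 and 0 expected counts in DDR1 replicates 1 to 4, against 0, 5, 0 and 1 in control replicates 1 to 4. Its 16 counts in all 8 libraries sat mainly in the 3 libraries that also held the most UPK2. Exact two-sided permutation tests of log2 CPM gave p = 0.857 for UPK2 and 0.743 for UPK3A. With 114 and 16 counts in all, neither gene had enough for the fit over all genes. In a bulk tumour, fewer cells of a kind and less RNA per cell cannot be told apart.

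**Figure D2:**
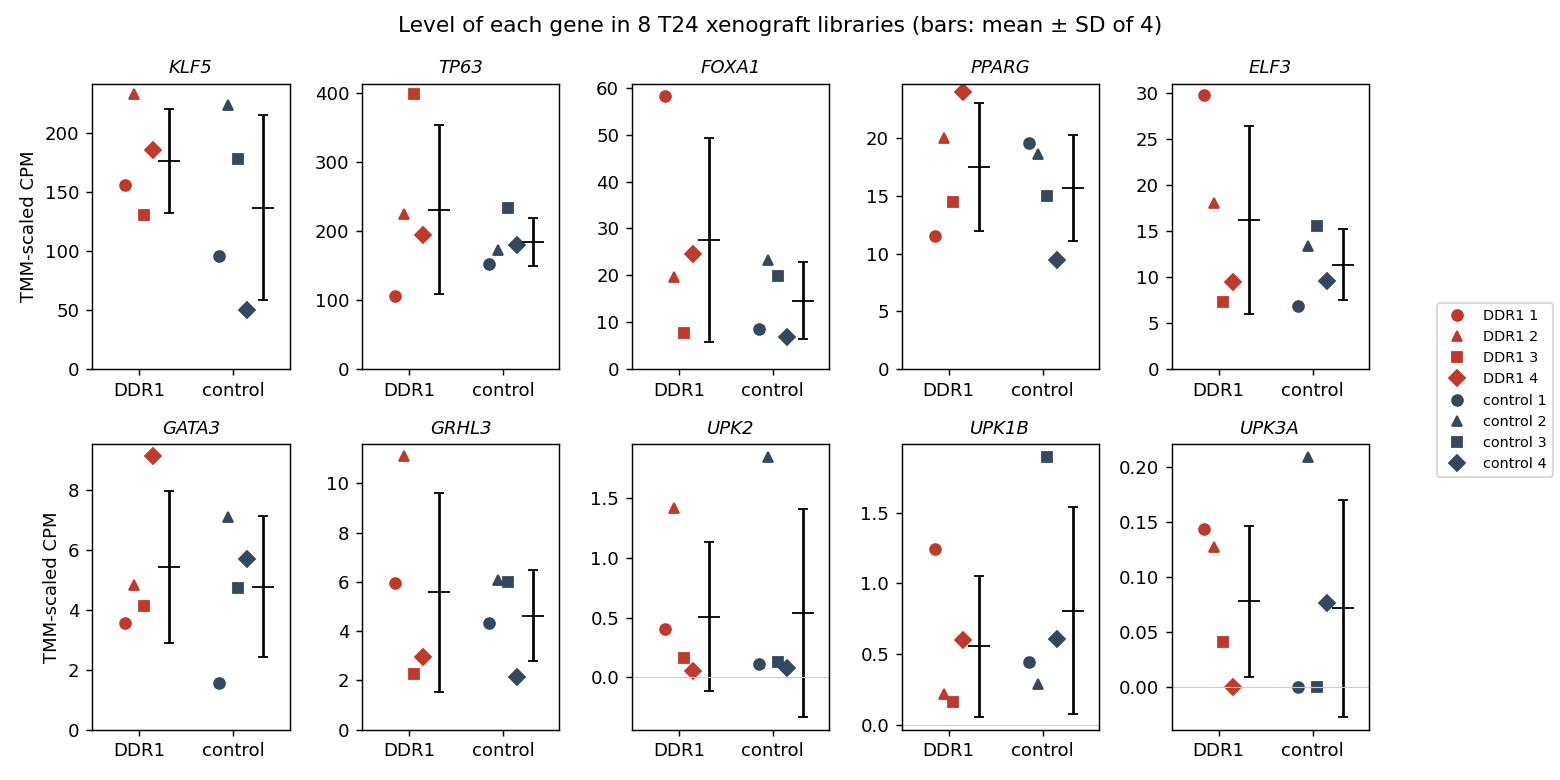
TMM-scaled CPM of each gene in the 4 DDR1 libraries (red) and the 4 control libraries (dark), with the marker shape giving the replicate and the bar the mean ± SD of 4. The groups overlap for every gene, FOXA1 and ELF3 are highest in the library labelled DDR1 replicate 1 (58.3 and 29.8 CPM), and TP63 is highest in DDR1 replicate 3 (399 CPM).

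The tested members varied more between libraries of a group than most genes did. The within-group standard deviation of log2 CPM was 1.07 for UPK1B, 1.05 for FOXA1, 0.87 for GRHL3, 0.79 for GATA3, 0.74 for ELF3 and 0.73 for KLF5. It was 0.58 for TP63 and 0.47 for PPARG, and the median over tested genes was 0.39. FOXA1 lay at percentile 92.1 of this spread and PPARG at percentile 63. Group accounted for 14.4% of the variance of FOXA1 and 16% of that of KLF5, and for 0.449% to 7.03% in the other tested members, where the median gene had 7.56%. DDR1 had 51.9%. No test was made of these percentiles. Counting error widens the within-group standard deviation at low counts, and UPK1B held only 4 to 44 expected counts per library.

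**Figure D3:**
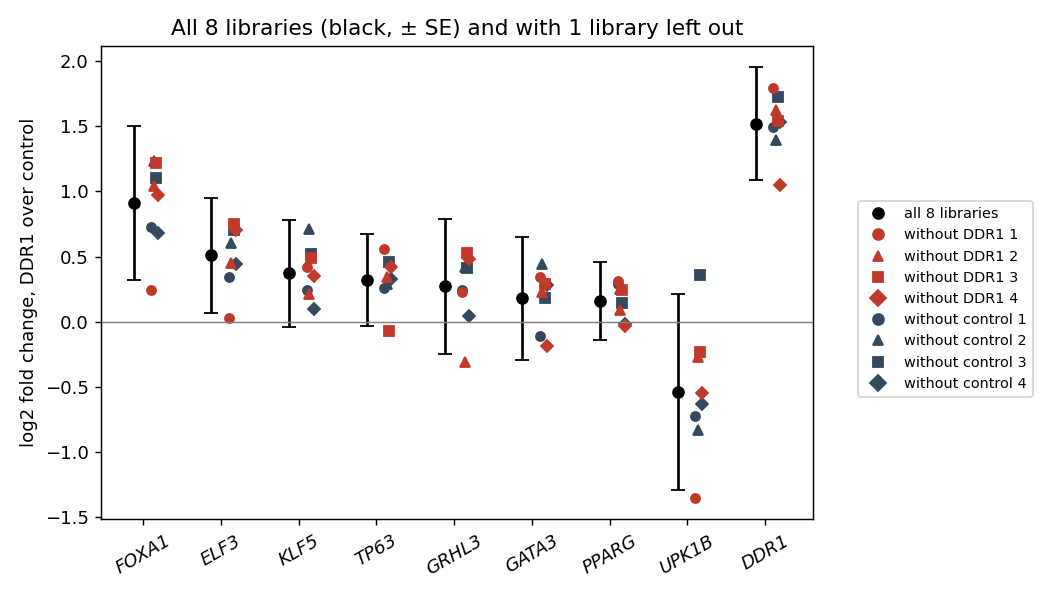
log2 fold change, DDR1 over control, of the 8 tested members and DDR1. Black points with bars are the estimate ± SE over all 8 libraries, and coloured points are the estimate with 1 library left out. FOXA1 is 0.24 and ELF3 0.03 without the library labelled DDR1 replicate 1, and GATA3, PPARG, GRHL3, TP63 and UPK1B change sign when 1 library is left out.

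Several of the factors varied together across libraries, as the deviations from each gene's mean show. Over the 8 libraries, which share depth and composition effects, FOXA1 and ELF3 had a Pearson correlation of log2 CPM of 0.85 (Spearman 0.52), and 0.70 without the library labelled DDR1 replicate 1. As high a correlation with FOXA1 was found for 1.7% of 10970 protein-coding genes with at least 5 CPM. GRHL3 correlated with ELF3 at 0.69 (Spearman 0.62) and with KLF5 at 0.69 (Spearman 0.81). FOXA1 correlated with KLF5 at 0.67 (Spearman 0.57), which 9.19% of those genes matched, and at 0.86 without the library labelled DDR1 replicate 1. PPARG correlated with KLF5 at 0.65 (Spearman 0.64), above FOXA1 with GRHL3 (0.59) and ELF3 with KLF5 (0.46). Without the library labelled DDR1 replicate 1 PPARG correlated with KLF5 at 0.75 and with FOXA1 at 0.67, against 0.14 with FOXA1 over all 8 libraries. TP63 went the other way, with -0.55 to FOXA1 and -0.49 to ELF3, and these were -0.18 and -0.06 without the library labelled DDR1 replicate 1. The highest correlation of GATA3 with another tested member was 0.32, with KLF5. Without the library labelled DDR1 replicate 1 it was 0.56, with FOXA1, and 0.43 with ELF3. In all 28 pairs were computed. Correlations of the members with DDR1 ran from -0.22 for ELF3 and GRHL3 to 0.53 for TP63.

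**Figure D4:**
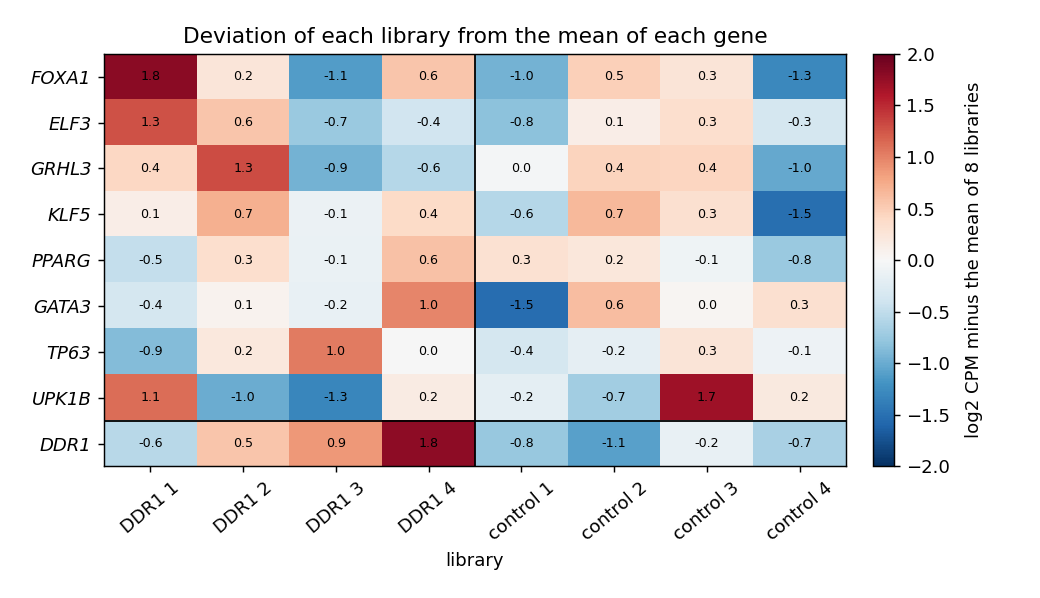
Deviation of log2 CPM from the mean of 8 libraries for the 8 tested members and DDR1, with DDR1 libraries left of the line and controls right. FOXA1 and ELF3 are highest (1.81 and 1.27) and TP63 lowest (-0.88) in the library labelled DDR1 replicate 1, where DDR1 itself is below its mean (-0.55).

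The same libraries differed in epithelial and mesenchymal genes. The line expressed epithelial keratins throughout, with KRT18, a simple keratin, at 419 ± 153 CPM in the DDR1 group and 443 ± 58.8 in controls (SD, n = 4 each), together with the matrix gene FN1 at 35600 ± 40400 and 43600 ± 13700 CPM in the DDR1 and control groups. FN1 stood at 4130, 39600, 91300 and 7540 CPM in DDR1 replicates 1 to 4, against 51000, 33400, 30800 and 59100 CPM in control replicates 1 to 4. The library with the most FOXA1 had the least FN1, but the mesenchymal markers did not share a direction. FOXA1 correlated at 0.57 with VIM and 0.32 with ZEB1, and at -0.64 with CDH2. Without the library labelled DDR1 replicate 1 these were 0.80, 0.31 and -0.42. CDH1, the epithelial cadherin, held 167, 77.2, 14 and 3.65 CPM in DDR1 replicates 1 to 4, against 36.8, 120, 67.9 and 23.7 CPM in control replicates 1 to 4.

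Of 80 pairs of a member and a marker of epithelial or mesenchymal identity, those farthest from 0 were TP63 with KRT18 (Pearson -0.90, Spearman -0.90, n = 8 libraries) and FOXA1 with FN1 (Pearson -0.88, Spearman -0.95). Without the library labelled DDR1 replicate 1 these were -0.89 and -0.75. They were chosen after their values were seen. As low a correlation with FOXA1 was found for 1.13% of the 10970 genes, and as low a one with TP63 for 0.337%. ELF3 and GRHL3 had correlations of 0.71 and 0.72 with CDH1, but of -0.71 and -0.69 with KRT7, another epithelial marker. Without the library labelled DDR1 replicate 1 the pairs of ELF3 were 0.60 and -0.59. PPARG, KLF5 and GRHL3 correlated with VIM at 0.74, 0.62 and 0.58 (Spearman 0.86, 0.64 and 0.50). The other mesenchymal markers did not all share that direction. With ZEB1, CDH2 and FN1, PPARG had -0.12, 0.26 and -0.08. KLF5 had 0.35, -0.23 and -0.36 with the same markers, and GRHL3 had -0.08, -0.60 and -0.23. GATA3 correlated with ZEB1 at 0.75, but its Spearman correlation was 0.21. Control replicate 1 was the lowest library for both GATA3 (1.55 CPM) and ZEB1 (13.2 CPM). Depth moved with some members too: log2 total counts correlated at 0.75 with KLF5 and 0.64 with FOXA1, and control replicate 4, the shallowest library, was the lowest for KLF5, FOXA1, GRHL3 and PPARG. The summed level of 26 ribosomal protein genes, listed here under RNA quality though no RNA integrity value was used, correlated at 0.75 with FOXA1. GATA3 correlated at 0.85 with the summed adipocyte markers, which stayed within 2.55 to 5.15 CPM in all libraries, and at 0.75 with the summed mitochondrially encoded genes. The part of depth, RNA quality and other cells in these patterns was not tested.

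Genes with the most similar pattern to each factor were taken as the 3 highest Pearson correlations over 8 libraries among the same 10970 genes. For FOXA1 they were UQCR10, a respiratory chain subunit (0.981), the translation factor gene EIF1AX (0.98) and TRIM37 (0.966). For ELF3 they were ZNF676 (0.965), RANBP17 (0.951) and RPP40 (0.945), and for GRHL3 they included AP1S1 (0.927) and TRIM16 (0.921). For KLF5 they were MFSD6 (0.983), the phosphatase gene PPM1D (0.964), and FOPNL (0.957). TP63 was most like the galactosyltransferase gene B4GALT1 (0.97), the cell cycle inhibitor CDKN2B (0.962) and RNF152 (0.959). PPARG was most like ALAS1, the first enzyme of haem synthesis (0.959), S100A10 (0.959) and MKRN2 (0.957), and the genes most like GATA3 included TSPAN14 (0.919) and MED29 (0.896). With 8 libraries such values arise for many genes: 67 genes reached 0.9 with FOXA1 and 27 with TP63, against 3 with GRHL3 and 1 with GATA3.

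The wider uroplakin family gave no call. Of 6 uroplakin genes 3 were tested, UPK1B, UPK3B and UPK3BL1, and all 3 had negative log2 fold changes (median -0.12) with 0 called. UPK3BL1, an uroplakin-like gene with near-identical copies whose counts are uncertain, was the most abundant per length. It held 9.13 ± 2.72 CPM in the DDR1 group and 9.73 ± 2.72 in controls. UPK3B held 0.98 ± 0.598 and 1.05 ± 0.351 CPM in the DDR1 and control groups. The summed level of the 6 genes was 7.93 to 16.5 CPM in DDR1 libraries and 10.4 to 17.3 CPM in controls. Most of this sum was UPK3BL1, at 6.92 to 13.0 CPM in DDR1 libraries and 7.23 to 13.6 CPM in controls.

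Among 31 urothelial transcription factors and partners, members included, 26 were tested, 19 with positive and 7 with negative log2 fold changes, and 0 were called in either direction. One had an unadjusted p under 0.05 in the higher direction, where 1.93% of all genes did. This was FOXQ1, a forkhead factor, at 7.28 ± 4.78 CPM in the DDR1 group and 1.85 ± 1.55 in controls (log2 fold change 1.95, SE 0.79, edgeR unadjusted p = 0.0342). GATA2 held 4.08 ± 3.43 and 1.78 ± 0.918 CPM in the DDR1 and control groups. The receptor gene NOTCH2 held 159 ± 35.6 and 208 ± 31.4 CPM in the DDR1 and control groups. None of these passed over all genes.

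Of 26 PPAR and RXR receptors, cofactors and responsive lipid genes, 23 were tested, with 10 positive and 13 negative log2 fold changes, a median of -0.12 and 0 called. None had an unadjusted p under 0.05. ANGPTL4, a lipase inhibitor induced by PPARs and by low oxygen, held 39.5 ± 12.8 CPM in the DDR1 group and 78.9 ± 59.9 in controls (edgeR unadjusted p = 0.064). The sterol synthesis gene HMGCS1 held 68.2 ± 16.3 and 51 ± 13.4 CPM in the DDR1 and control groups. The fatty acid binding protein gene FABP5 held 48.7 ± 8.77 and 53.6 ± 26.4 CPM in the DDR1 and control groups. Fat cells are another source of PPARG. The 8 adipocyte markers summed to 2.82 to 5.15 CPM in DDR1 libraries and 2.55 to 4.91 CPM in controls, and ADIPOQ had 9 counts in all. Their most abundant gene per length, FABP4, held 0.708 ± 0.744 and 0.526 ± 0.24 CPM in the DDR1 and control groups. Host fat is of mouse, and mouse reads enter these human gene models only where they align. Low values therefore do not show that host fat was scarce.

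Of 25 genes of the p63 family and p63-dependent epithelial program, 24 were tested, 17 positive and 7 negative, with a median of 0.23 and 0 called. The highest per length was KRT5, the basal keratin, at 2790 ± 982 CPM in the DDR1 group and 2010 ± 912 in controls (log2 fold change 0.47, SE 0.41, edgeR unadjusted p = 0.286). EGFR, the epidermal growth factor receptor, held 532 ± 69.7 CPM in the DDR1 group and 370 ± 29.2 in controls. It was the 1 gene of the 24 without overlap between groups, against 2.40% of all genes. Its log2 fold change of 0.52 (SE 0.16) had an edgeR unadjusted p of 0.0083 and an adjusted p of 0.9998. The receptor gene FGFR3 held 46.6 ± 40.7 and 11.1 ± 6.47 CPM in the DDR1 and control groups (edgeR unadjusted p = 0.044). The laminin gene LAMB3 held 357 ± 124 and 652 ± 396 CPM. Of the 24 genes tested, 2 had an unadjusted edgeR p under 0.05, EGFR and FGFR3, both higher in the DDR1 group. Of all genes tested, 1.93% had one in that direction.

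Genes of both the luminal and the basal tumour lists were detected, which does not show that both programs were active. The most abundant luminal gene per length was the simple keratin KRT18. UPK2, UPK3A and KRT20 had only 114, 16 and 87 counts in all 8 libraries. Of 32 luminal genes 24 were tested, with 16 positive and 8 negative log2 fold changes, a median of 0.25 and 0 called. An unadjusted edgeR p under 0.05 was found for 3 of the 24, 2 higher and 1 lower, where 4.17% of all genes had one. These were KRT19 at 394 ± 201 CPM in the DDR1 group and 203 ± 74.4 in controls, the sodium channel subunit SCNN1B at 14.2 ± 16.8 and 2.79 ± 2.19, and CYP2J2 at 0.832 ± 0.841 and 2.77 ± 1.31. KRT19 and SCNN1B were highest in DDR1 replicate 4, the library with the most DDR1. Of 20 basal and squamous genes, which share EGFR, KRT5 and others with the p63 list, 18 were tested, with 13 positive and 5 negative, a median of 0.32 and 0 called. KRT17, the most abundant per length, held 2610 ± 89.3 and 2550 ± 1110 CPM in the DDR1 and control groups. TGM1 held 7.25 ± 6.36 and 2.34 ± 1.74 CPM, and KRT6A 303 ± 327 and 122 ± 82.8 CPM.

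Lists of other cells and of RNA quality were counted the same way. Host cells are counted here only where mouse reads align to human genes, so low counts do not show that such cells were few. Of 21 stromal, endothelial and blood cell markers 10 were tested, with 7 positive and 3 negative log2 fold changes, a median of 0.46 and 0 called. They summed to 47.8 to 140 CPM in DDR1 libraries and 65 to 115 CPM in controls, CD68, a macrophage gene and the most abundant per length, held 30 ± 11.9 CPM in the DDR1 group and 19 ± 12.1 in controls, the blood cell gene PTPRC had 10 counts in all and HBB had 0. Of 10 mesenchymal genes 8 were tested, with 6 positive and 2 negative, a median of 0.41 and 0 called. ZEB2, a repressor of epithelial genes, had an unadjusted edgeR p of 0.0242 in the lower direction, with 9.95 ± 5.3 CPM in the DDR1 group and 22.9 ± 9.53 in controls. ZEB1 held 29.2 ± 1.88 and 21.6 ± 5.63 CPM in the DDR1 and control groups (edgeR unadjusted p = 0.0719). It was the 1 gene of the 8 without overlap between groups, against 2.40% of all genes. All 26 ribosomal protein genes had positive log2 fold changes, with a median of 0.38 and 0 called, and 8 had an unadjusted p under 0.05 in the higher direction, where 1.93% of all genes did. Groups did not overlap for 5 of the 26, against 2.40% of all genes. Their sum was 12800 to 18200 CPM in DDR1 libraries and 9980 to 12300 CPM in controls, without overlap, and the highest per length, RPL19, held 833 ± 228 and 614 ± 102 CPM in the DDR1 and control groups. Of 13 mitochondrially encoded genes 12 were positive, with a median of 0.21 and 0 called, and MT-CO1, the highest per length, held 6260 ± 316 and 6100 ± 1390 CPM in the DDR1 and control groups. The adipocyte list had 3 tested genes, all positive, with a median of 0.08 and 0 called. The shift in ribosomal genes stands beside the positive median of the members, and its part in that median was not tested.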

How the data were processed

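Messenger RNA of 4 DDR1 and 4 control T24 xenograft libraries was measured, grouped by the condition label. The members, lists and tests were chosen with earlier results of these data known. The submitters' processing notes name STAR 2.7.5 and RSEM 1.3.1, besides FastQC 0.11.9 and Trim Galore 0.6.4. The sources used here give no annotation release and no step that removes mouse reads, and mouse reads that align to conserved human genes add to their values. The authors deposited expected counts for 58302 genes (26.5% of values above 0 not whole), which were rounded, and a TMM-normalized table, which from its values is on a log2 scale and was used in 1 alternative. Single-library files held the same log2 values.

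Identifiers were matched to GENCODE release 29 (GRCh38), 58039 in all, which gave symbols, coordinates and exon lengths. Genes passed edgeR's filterByExpr at a minimum count of 10 (18973 genes). The test was edgeR's quasi-likelihood test with TMM scaling over all 8 libraries and no covariate (edgeR 4.0.16, limma 3.58.1, DESeq2 1.42.0, R 4.3.3), with Benjamini-Hochberg adjustment over all genes and 0.05 as threshold. The fit was tried on simulated counts for these 18973 genes, with 200 genes of mean count 50 or more changed by 2 on the log2 scale. It called 185 of the changed and 7 of the unchanged genes. The simulated spread followed the trend over genes of like level, without each gene's own spread or a lane effect. These numbers therefore do not give the power for the members, whose estimated changes were smaller. For log2 CPM the prior count was 2. The protocol names no strand marking: exons of UPK2, FOXA1 and ELF3 overlap those of BCL9L, TTC6 and ELF3-AS1 on the other strand, so their reads cannot be told apart.

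Named genes were the members, DDR1, the most abundant gene per length of each list, the 3 smallest p-values of each urothelial or pathway list, and the 3 genes most like each member with at least 1 CPM. Some genes that this rule names are not reported here. CDH1, KRT7, KRT20, VIM, CDH2, ZEB1, ZEB2, PTPRC, HBB, ADIPOQ and the overlapping genes fall outside it and were named as cell markers or neighbours, after their values were seen. Alternatives were 2 other scalings, DESeq2, limma-voom, limma-trend on the log2 table, 2 other filters, each library left out, either pair of controls left out, summing libraries of a shared title prefix, an exact permutation test, and the longest transcript as gene length.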

Additional observations from a re-analysis of the deposited data

Results flagged for a closer look

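UPK2 in control replicate 2 stood apart from the other controls at 1.84 CPM, from 44 expected counts, against 0.0762 to 0.129 CPM in the other 3. It was 1 of 22 combinations of a gene and a group examined, where chance sets a library apart in about 1 of 20. DDR1 replicate 2 held a similar level, 1.42 CPM.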

How the results depend on the processing

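No member and no gene of the 11 lists was called under any of the settings tried, and DDR1 did not pass over all genes in any of them. Over all genes, DESeq2 called 15 where edgeR called 0, and the cause was not tested. Leaving out 1 library turned the sign of 5 members: UPK1B ran from -1.35 to 0.36, GATA3 from -0.19 to 0.44, PPARG from -0.03 to 0.31, GRHL3 from -0.31 to 0.53 and TP63 from -0.07 to 0.56. FOXA1 ran from 0.24 to 1.23, ELF3 from 0.03 to 0.75, KLF5 from 0.10 to 0.71 and DDR1 from 1.05 to 1.79. Without the controls that name no lane, UPK1B was 0.62 and PPARG -0.12. With same-prefix libraries summed, UPK1B was 0.05, PPARG -0.15, GATA3 0.03, TP63 0.09, KLF5 0.20 and ELF3 0.92, and the member median was 0.14 in place of 0.30. The cause of these changes was not tested. By the longest transcript, FOXA1 and PPARG exchanged ranks 3 and 4, and GATA3 and GRHL3 ranks 6 and 7. GATA3 and UPK1B did not pass the filter of 5 CPM in 4 libraries and have no value there. No paired analysis was possible because replicate numbers follow accession order and pair no libraries. UPK2 and UPK3A were below the count filter and have no value in the main comparison.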

Other observations

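TTC6, whose exons overlap those of FOXA1 on the other strand, was chosen after its values were seen. It held 5.92, 1.3, 0.283 and 1.5 CPM in DDR1 replicates 1 to 4, against 0.609, 1.5, 1.03 and 1.07 CPM in control replicates 1 to 4, and correlated with FOXA1 at 0.87 over the 8 libraries. Because strand marking is not stated, reads of the overlap cannot be told apart. GATA3-AS1, which overlaps GATA3 on the other strand but not in its exons, correlated with GATA3 at 0.80, on 102 counts in all. BCL9L, whose exons overlap those of UPK2, had 10840 counts in all against 114 for UPK2, and correlated with it at -0.26.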
